A study of Ovis aries with 12 samples.

Results

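The genes described here build the beating cilium of the oviduct epithelium and the transport system that assembles it. They were chosen by name: every gene whose symbol starts with DNAH, DNAI, DNAL, CFAP, RSPH, TEKT, DRC or IFT followed by a digit, with the FPKM of its transcripts summed, and with a mean of at least 0.5 FPKM over the 12 libraries. The sheep reference names 101 genes of these families, 63 of them have a transcript in the table that could be paired with the gene, and 61 passed the limit, out of 10,771 genes summed in all. The 38 genes without a paired transcript were not analysed here. FPKM, fragments scaled to transcript length and to the mapped fragments of the library, was computed by the authors, and the depth behind a value is unknown beyond a relative estimate.

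RNA came from the isthmus of the oviduct of 12 Small-Tailed Han ewes, 3 in each of 4 groups. MF and ML were FecB BB ewes, homozygous for the fecundity mutation of the BMP receptor gene BMPR1B, sampled as follicular (MF) and as luteal (ML) animals. Wild type FecB ++ ewes made up wF (follicular) and wL (luteal). All 12 ewes, about 2.5 ± 0.5 years old and 70 ± 5 kg in weight, carried an intravaginal device with 300 mg of progesterone for 12 days. The follicular ewes were killed 45 to 48 h after its removal and the luteal ewes on day 9, so the phase is that of a synchronized cycle. The library is whole tissue: fewer ciliated cells and less ciliary RNA per cell cannot be told apart. The kit named in the labels does not mark strand, so reads from a gene and from an overlapping antisense transcript cannot be told apart either.

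As background, the axoneme of a motile cilium is a ring of microtubule doublets around a central pair. Outer and inner dynein arms on the doublets drive the beat, radial spokes and the dynein regulatory complex control it, and tektins and other CFAP proteins stiffen the doublets. Intraflagellar transport (IFT) carries parts along the cilium, with the IFT-B complex on the way out and the IFT-A complex on the way back, and it serves the non-motile primary cilium of many other cell types as well. In the oviduct, ciliated cells move the gametes and the embryo, and secretory cells stand between them.

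All 8 structural classes had members in the isthmus libraries. Of the 61, 60 had a mean of at least 1 FPKM. DNAH5, a heavy chain of the outer dynein arm, had the highest mean at 80.8 FPKM, followed by CFAP298 at 58.9 FPKM, CFAP141 at 58.0 FPKM, CFAP36 at 56.8 FPKM and DRC3 of the dynein regulatory complex at 49.3 FPKM. CFAP298 is needed for the assembly of dynein arms in the cytoplasm. The members nearest to the limit were IFT43, a subunit of IFT-A, at 0.85 FPKM, CFAP20DC at 1.19 FPKM and the radial spoke gene RSPH6A at 1.47 FPKM. Only TEKTL1 at 0.01 FPKM and TEKT5 at 0.02 FPKM fell below it. These are sums over the paired transcripts alone, 88 in all, with 1 transcript for 42 genes and 2 or more for 19, so they are lower limits of a gene's level.

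**Figure D1:**
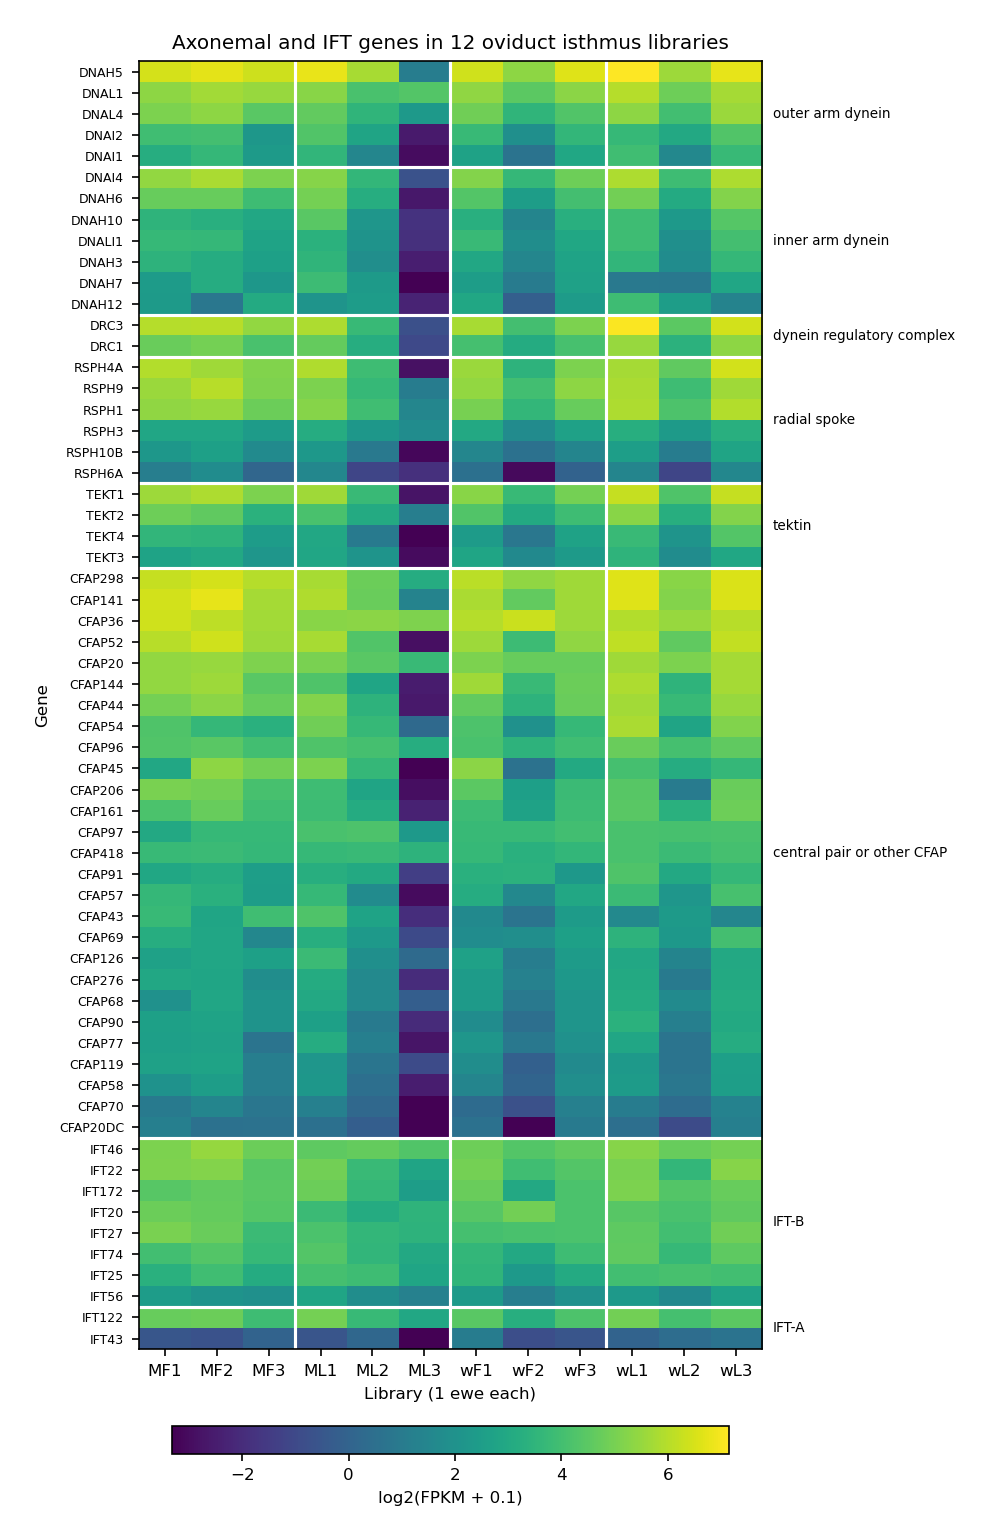
Level of each of the 61 genes (rows, by structural class and mean level) in each of the 12 libraries (columns), as log2(FPKM + 0.1). ML3 holds the lowest value in 54 of 61 rows, and IFT46 runs only from 19.9 to 44.4 FPKM.

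The summed level of the 61 genes differed widely between ewes of the same group. Their FPKM summed to 1498, 1676 and 1078 in MF1, MF2 and MF3, to 1388, 638 and 208 in ML1, ML2 and ML3, to 1272, 614 and 1041 in wF1, wF2 and wF3, and to 1919, 739 and 1842 in wL1, wL2 and wL3. The lowest sum of each group but MF therefore belonged to ML3, wF2 or wL2, and that of ML2 was close to them. Relative to the summed FPKM of all paired transcripts, the share ran from 0.0983% in ML3 to 0.73% in wL3. ML3 held the lowest value of 54 genes, wF2 that of 5 and ML2 that of 2. In ML3, 6 members were listed at 0, namely CFAP20DC, CFAP45, CFAP70, DNAH7, IFT43 and TEKT4, and 34 were below 0.5 FPKM. The highest value lay in wL1 for 19 genes and in wL3 for 17. A level under 50% of the gene's own median over the 12 libraries was found for 51 genes in ML3, 43 in wF2, 24 in ML2 and 19 in wL2, against at most 2 in any other library.

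Markers of ciliated cells, of epithelium and of smooth muscle moved with these 4 libraries, and those of leukocytes did not. The 31 of 50 listed ciliated cell genes outside the families that could be tested had summed levels between 837 and 1527 FPKM in MF, between 54.1 and 1091 in ML, between 329 and 1111 in wF, and between 472 and 1786 in wL. In ML3 the markers listed at 0 were SPAG6, ARMC3, MAK, SPEF2, SPAG8 and MORN5. The 8 of 12 smooth muscle genes with a value had summed levels between 497 and 1641 FPKM in MF, between 1083 and 7308 in ML, between 1539 and 6596 in wF, and between 606 and 3642 in wL, with their highest mean log2 levels in ML3 (9.33), wF2 (9.27), ML2 (8.49) and wL2 (8.49), against 5.46 to 7.54 in the other 8. No smooth muscle marker with a value was at 0 in any library. The 4 of 14 epithelial genes with a value, EPCAM, CLDN7, KRT8 and CLDN3, had their lowest mean log2 levels in the same 4 libraries. These were 5.02 in ML3, 6.05 in ML2, 6.15 in wF2 and 6.23 in wL2, against 6.49 to 7.44 elsewhere. The 5 of 9 endothelial genes with a value were highest in wF2 (3.65) and wL2 (3.59). Next were ML1 (3.01), ML2 (2.98) and ML3 (2.96). Fibroblast genes were highest in ML3 (8.46), but MF3 (8.21) and wF3 (8.04) were above ML2 (7.77) and wL2 (7.79). Leukocyte genes lay at 1.36 to 2.53 over the 12 libraries, with wF2 lowest and wL2 highest. The fragments behind the FPKM, estimated relative to MF1, ran from 0.67 in ML1 to 1.15 in wF2, with 0.772 in ML3. The part of tissue make-up or depth in the results was not tested, and the main results below are also given without ML3 or without ML2, ML3, wF2 and wL2; these omissions were decided with the values in view.

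Across the 12 libraries the genes followed the ciliated cell markers outside the families. On the log2(FPKM + 0.1) scale, the correlation of a member with the mean of the 31 markers had a median of 0.952 and ran from 0.527 to 0.994. It was above 0.9 for 39 of 61 genes (63.9%), against 275 of 8615 other genes tested (3.19%). Without ML3 it was above 0.9 for 32 of 61 (52.5%), with a median of 0.907. All points share their libraries and no p is attached to these values. DNAI4 of the inner arm (0.994), DRC1 of the dynein regulatory complex (0.994) and CFAP57 (0.994) were closest to the markers, and IFT25 (0.527), IFT20 (0.551) and CFAP36 (0.562) were farthest. Outside the families, the genes of at least 1 FPKM with the pattern most like the median of the members were SPATA18 (r = 0.997 over 12 libraries), LOC101111962 (0.996), DCDC2B (0.996), MAP3K19 (0.995) and LRRC36 (0.995). MAP3K19 is itself 1 of the 31 markers.

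**Figure D2:**
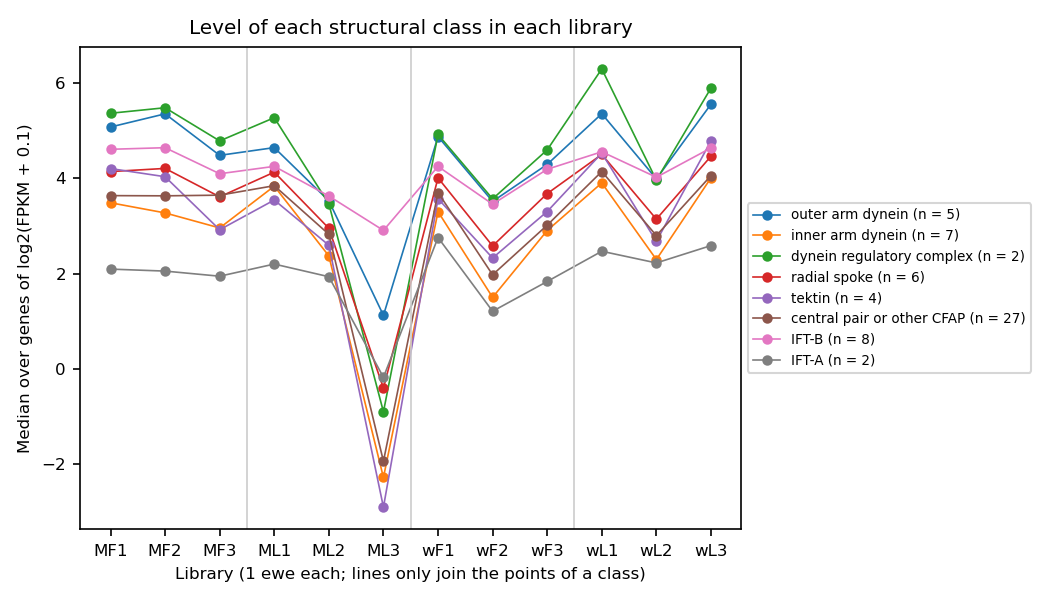
Median over the genes of each structural class of log2(FPKM + 0.1), for each of the 12 libraries, with lines that only join the points of a class. IFT-B varied over 1.74 log2 units and tektins over 7.69, and ML3 was the lowest library in every class.

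The outer dynein arm carries the motors that set the beat frequency. DNAH5 was at 88.9, 104 and 81.3 FPKM in MF, 112, 55.1 and 2.08 in ML, 84.7, 41.4 and 99.6 in wF, and 142, 49.0 and 110 in wL. The ewes of ML thus ran from the lowest value of all to one that only wL1 exceeded. DNAI1, an intermediate chain that anchors the arm, was at 9.23, 12.4 and 5.19 FPKM in MF, 11.6, 2.72 and 0.0268 in ML, 6.36, 1.51 and 7.44 in wF, and 15.2, 2.84 and 13.0 in wL. DNAL1, a light chain of the arm, behaved differently in the lowest library. It was at 41.1, 52.4 and 46.2 FPKM in MF, 38.5, 17.5 and 20.2 in ML, 41.9, 22.6 and 39.6 in wF, and 63.0, 28.3 and 53.4 in wL. Its level in ML3 was 49.1% of the median of the other 11 libraries, against 2.34% for DNAH5 and 0.36% for DNAI1.

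The inner arm shapes the bend of the cilium, and its 7 genes were low in ML3 without exception, all at or under 1.98% of the median of the other libraries. DNAI4 was at 44.1, 56.3 and 34.0 FPKM in MF, 38.3, 12.3 and 0.52 in ML, 36.9, 12.5 and 28.2 in wF, and 57.3, 14.7 and 58.0 in wL. DNALI1, a light intermediate chain of inner arms, was at 12.7, 12.5 and 6.70 FPKM in MF, 10.3, 4.06 and 0.175 in ML, 13.5, 3.45 and 7.39 in wF, and 14.7, 3.63 and 16.0 in wL. In both, ML3 was far below all other libraries and wF2 was near the low end. DNAH7, a heavy chain, was at 5.33, 8.92 and 4.51 FPKM in MF, 14.2, 5.08 and 0 in ML, 5.54, 1.96 and 6.28 in wF, and 1.79, 1.74 and 7.16 in wL. Its value in wL1 was low although wL1 held the highest value of 19 other genes. DNAH12, DNAH7, CFAP43 and CFAP45, of which all but DNAH7 were named after their values were seen, each rest on 1 transcript with more than a trace of signal, and their correlation with the ciliated markers fell from between 0.72 and 0.869 to between 0.163 and 0.518 when ML3 was left out. CFAP45, a protein inside the doublets, was at 7.70, 41.6 and 29.8 FPKM in MF, 34.1, 12.4 and 0 in ML, 39.7, 1.44 and 8.0 in wF, and 16.5, 8.74 and 12.4 in wL. CFAP43, which is needed for the structure of sperm tails and motile cilia, was at 13.2, 7.08 and 15.1 FPKM in MF, 19.2, 6.70 and 0.16 in ML, 3.01, 1.52 and 5.26 in wF, and 2.91, 5.05 and 2.71 in wL. In wL, CFAP43 was highest in wL2 and lowest in wL3, the reverse of DNAI4 and DNALI1, whereas in ML all 3 genes were highest in ML1 and lowest in ML3.

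The dynein regulatory complex links neighbouring doublets, and both of its genes had their highest value in wL1. DRC3 was at 63.0, 64.1 and 43.7 FPKM in MF, 57.9, 13.2 and 0.482 in ML, 54.8, 16.4 and 34.2 in wF, and 136, 22.6 and 85.2 in wL. DRC1, a scaffold of the complex, was at 27.0, 31.2 and 17.3 FPKM in MF, 25.8, 9.10 and 0.392 in ML, 16.7, 8.48 and 17.0 in wF, and 45.7, 10.7 and 41.6 in wL. All 3 wF ewes were below all 3 MF ewes in DRC1, while the ranges of the other groups overlapped.

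Radial spokes pass signals from the central pair to the dynein arms. RSPH4A, a protein of the spoke head, was at 61.6, 50.6 and 35.8 FPKM in MF, 59.8, 14.9 and 0.0375 in ML, 47.8, 10.8 and 33.7 in wF, and 53.7, 23.9 and 87.1 in wL. Its lowest library was 0.0431% of its highest, the smallest share among the spoke genes. RSPH3, a protein of the spoke stalk, was instead at 7.33, 7.21 and 5.32 FPKM in MF, 8.92, 4.56 and 3.27 in ML, 7.95, 3.18 and 6.25 in wF, and 9.46, 5.12 and 9.71 in wL, and its lowest value lay in wF2. The tektins, filaments along the doublet wall, had the largest range of class medians over the 12 libraries, 7.69 log2 units. Without ML3 it was 2.46, below the 2.83 of the dynein regulatory complex and the 2.51 of the inner arm. TEKT1 was at 49.5, 58.1 and 33.5 FPKM in MF, 50.6, 13.7 and 0.0448 in ML, 39.0, 13.2 and 30.7 in wF, and 74.6, 19.2 and 75.3 in wL. TEKT4 was at 11.8, 10.99 and 5.46 FPKM in MF, 7.56, 1.87 and 0 in ML, 5.24, 1.70 and 6.38 in wF, and 13.6, 4.22 and 20.4 in wL. TEKT2 kept more of its level in ML3, 11.9% of the median of the other 11 libraries, where TEKT1, TEKT3 and TEKT4 were under 1%.

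The other CFAP genes, a mixed class named for their association with cilia and flagella, held both steady and widely varying members. CFAP298 was at 75.5, 88.1 and 62.5 FPKM in MF, 54.8, 27.6 and 8.92 in ML, 66.0, 43.0 and 49.7 in wF, and 98.3, 38.8 and 93.1 in wL. All 3 ML ewes were below all 3 MF ewes. CFAP418 had the narrowest range of the class, at 13.1, 14.04 and 12.4 FPKM in MF, 12.9, 13.7 and 10.9 in ML, 12.9, 9.96 and 12.2 in wF, and 17.7, 13.9 and 16.6 in wL. CFAP57, a protein that ties inner arms to the regulatory complex, followed the ciliated markers closely, at 12.4, 10.03 and 5.64 FPKM in MF, 12.9, 3.22 and 0.0235 in ML, 8.92, 2.82 and 7.68 in wF, and 13.8, 4.48 and 17.2 in wL. CFAP20DC, with a range of 0 to 2.22 FPKM, was listed at 0 in both ML3 and wF2.

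By class median, IFT-B and IFT-A varied least between libraries, though IFT-A holds only 2 genes. IFT46, of the IFT-B core, was at 33.7, 44.4 and 27.5 FPKM in MF, 23.5, 25.5 and 19.9 in ML, 28.4, 20.4 and 24.7 in wF, and 38.0, 25.9 and 30.7 in wL. Its lowest library was 44.9% of its highest. IFT172, an IFT-B protein that takes part in the turn at the ciliary tip, was at 21.2, 24.7 and 22.1 FPKM in MF, 28.0, 12.4 and 5.64 in ML, 27.0, 7.85 and 18.3 in wF, and 33.5, 20.2 and 25.8 in wL, the widest range in that class. IFT122, a core protein of IFT-A, was at 26.4, 27.5 and 14.7 FPKM in MF, 31.1, 13.0 and 7.72 in ML, 21.9, 9.38 and 18.7 in wF, and 30.5, 16.4 and 22.9 in wL. Values of IFT43 lay between 0 and 1.98 FPKM and give little to compare.

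**Figure D3:**
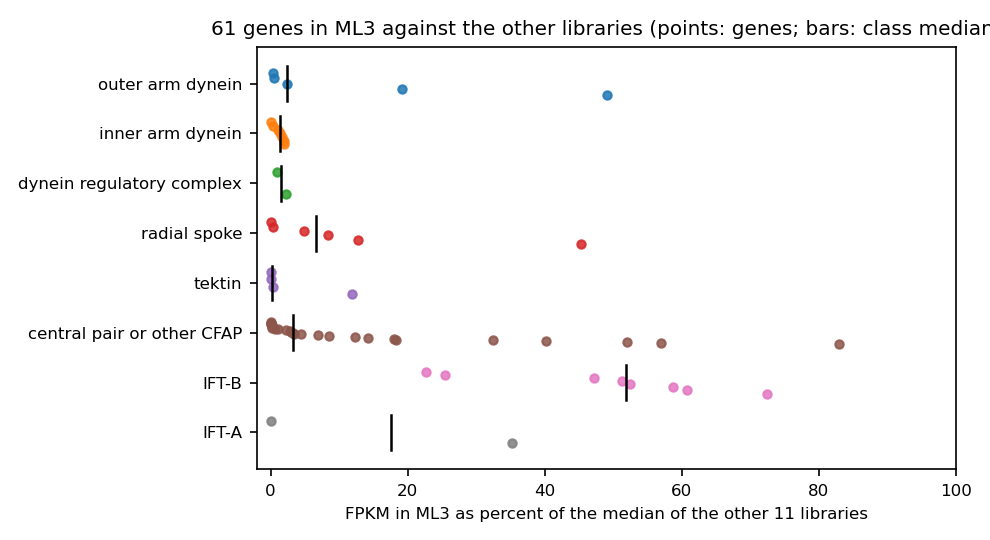
FPKM in ML3 as a percent of the median of the other 11 libraries for each of the 61 genes (points, staggered only for display), by structural class, with a bar at the class median. Inner arm genes are all at or under 1.98%, and the 8 IFT-B genes lie between 22.7% and 72.4%.

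The level in ML3 set IFT-B apart from most axonemal genes in value. The median over the 61 genes was 3.05% of the median of the other libraries, with 20 genes under 1% and 35 under 5%. It was 51.9% for the 8 IFT-B genes, 17.6% for the 2 IFT-A genes, 6.67% for the radial spoke, 3.21% for the 27 other CFAP genes, 2.34% for the outer arm, 1.57% for the dynein regulatory complex, 1.42% for the inner arm and 0.231% for the tektins. The genes at 50% or more were IFT20, IFT74, IFT56, IFT27, IFT46, CFAP96, CFAP36 and CFAP418. The 23 genes of a list of IFT partners, motors and BBSome subunits had a median of 44.4%, and the ciliated markers had a median of 1.28%. Smooth muscle genes stood at 509% and fibroblast genes at 250% in the same library. The slope of a gene on the ciliated markers without ML3, in log2 units per log2 unit, had a median of 0.336 for IFT-A, 0.459 for IFT-B, 0.832 for the outer arm, 0.862 for the other CFAP genes, 0.928 for the radial spoke, 0.969 for the inner arm, 1.02 for the tektins and 1.09 for the dynein regulatory complex. Both IFT classes had the lowest median slopes and the highest median shares kept in ML3. The order of the other classes differed between the measures. However, the 2 IFT-A genes did not agree. IFT43, near the 0.5 FPKM limit, was at 0% in ML3 with a slope of 0.072, and IFT122 was at 35.2% with 0.600. The difference between classes is a description of these libraries, and it was not tested.

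The first comparison asked how follicular and luteal BB ewes differ. IFT20, an IFT-B subunit that also works at the Golgi to load ciliary membrane cargo, was the only member called (limma on log2(FPKM + 0.1), adjusted p under 0.05 and a log2 change of 1 or more in either direction). It was at 28.0, 25.2 and 20.9 FPKM in MF and at 14.01, 8.54 and 11.01 in ML, so that every MF ewe was above every ML ewe. The change was 1.15 on the log2 scale (SE 0.24, adjusted p = 0.0462 by limma; 24.7 ± 3.57 against 11.2 ± 2.74 FPKM, SD, n = 3), and the log2(FPKM + 0.1) scale understates changes of low genes. In this comparison 1 of 61 members was called, where 1.73% of 8676 genes were. The same gene was at 21.5, 30.6 and 18.3 FPKM in wF and at 21.5, 17.4 and 23.9 in wL, with overlapping ranges. Its lowest value lay in ML2 (8.54 FPKM), with ML3 (11.01 FPKM) next. Within-group differences made up 22.5% of its variance on the log scale, the lowest share of any member. The medians were 68.8% over the members and 63.9% over all other genes. That share comes from the same values and groups as the test, so it adds no support to the call. The call held in 8 of 20 alternatives, with log2 changes of 0.80 to 1.33 and adjusted p between 0.0405 and 0.18 by limma. It was lost without MF1, MF2, ML2, ML3, wF1, wF3, wL1 or wL3, with adjusted p of 0.0633 to 0.18, and without ML2, ML3, wF2 and wL2 it was 0.80 (adjusted p = 0.144), where ML1 alone stood for its group.

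The members next to IFT20 in rank, CFAP36 and CFAP20, were named after their values were seen and had the same order of groups. CFAP36, a protein that binds the ciliary GTPase ARL3, was at 85.02, 67.9 and 52.3 FPKM in MF and at 38.9, 39.8 and 34.6 in ML (log2 change 0.83, SE 0.22, adjusted p = 0.0722 by limma). CFAP20, a protein of the inner junction of the doublet, was at 43.1, 46.7 and 34.6 FPKM in MF and at 32.5, 21.9 and 13.5 in ML (log2 change 0.95, SE 0.30, adjusted p = 0.0991 by limma). Neither passed the threshold, although the groups did not overlap in either. In all, 11 of 61 members had all MF values above all ML values, and 0 had all below, where 16.5% and 14.4% of all genes tested did. The 11 were IFT20, IFT46, DNAL1, RSPH9, CFAP20, CFAP20DC, CFAP36, CFAP144, CFAP161, CFAP206 and CFAP298. An unadjusted p under 0.05 was reached by 13 members, all higher in MF, where 25.5% of all genes reached it.

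The median change between MF and ML differed between the classes, although their ranges overlapped. The median log2 change was 1.64 over the members, with 59 of 61 higher in MF, against 0.06 over all genes. By class it was 0.69 for IFT-B, 0.71 for IFT-A, 1.64 for the other CFAP genes, 1.87 for the outer arm, 1.93 for the radial spoke, 2.10 for the inner arm, 2.48 for the tektins and 2.60 for the dynein regulatory complex. Single changes ran from -0.13 to 1.155 in IFT-B, from 0.35 to 3.28 in the radial spoke and from -0.11 to 3.64 in the other CFAP genes. All of these values include ML3, where the classes differed as given above. None of the members with a larger change than IFT20 was called. CFAP144, a protein inside the doublet with some of the largest ratios, was at 43.2, 48.5 and 21.7 FPKM in MF and at 19.1, 6.99 and 0.073 in ML. Every MF ewe was above every ML ewe, and the log2 change of 3.64 had an SE of 1.44 (adjusted p = 0.154 by limma). Without ML3 the median over the members was 0.53 with 45 higher in MF, and without ML2, ML3, wF2 and wL2 it was -0.15 with 23 higher in MF.

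**Figure D4:**
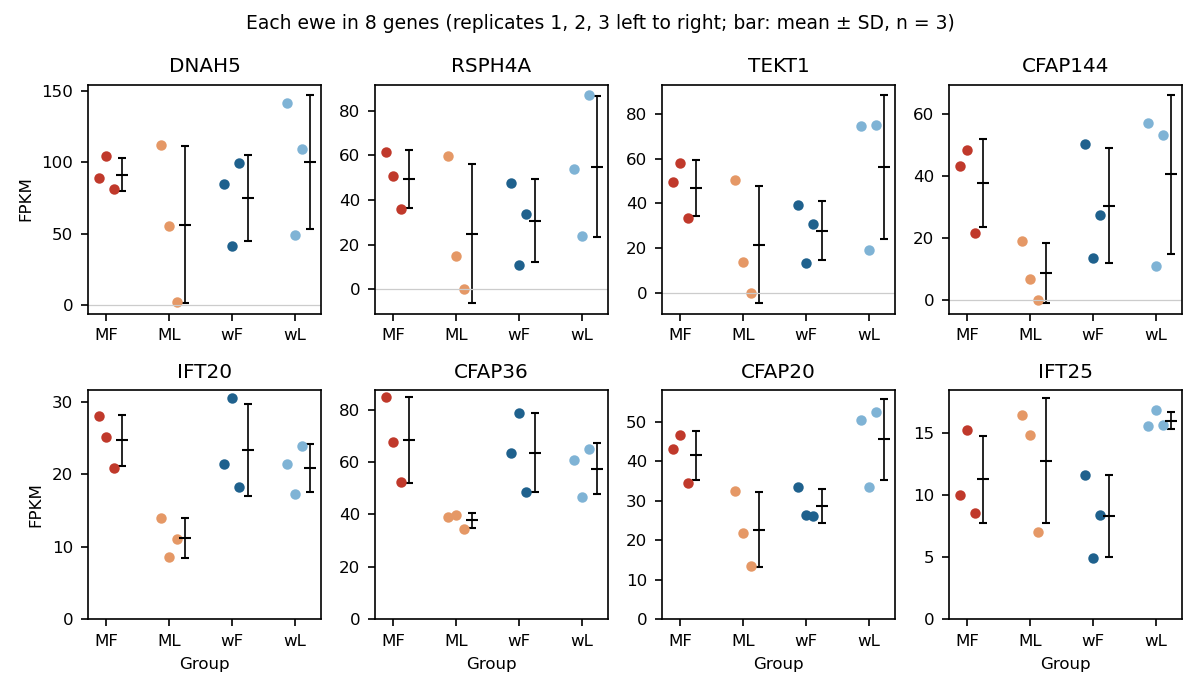
FPKM of each ewe in 8 genes by group, with replicates 1, 2 and 3 from left to right and the mean ± SD (n = 3) beside them. In IFT20 the 3 ML ewes lie at 8.54 to 14.01 FPKM below all ewes of the other groups, whereas in DNAH5, RSPH4A and TEKT1 the ewes of ML spread from near 0 to values of the other groups.

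The second comparison asked the same of ++ ewes, and the direction was the opposite. No member was called between wF and wL by limma (0% of all genes were), 2 members had an unadjusted p under 0.05 (8.79% of all genes), and 57 of 61 were lower in wF, with a median log2 change of -0.65 against -0.12 over all genes. CFAP418, which is known from retinal disease in humans, was at 12.9, 9.96 and 12.2 FPKM in wF and at 17.7, 13.9 and 16.6 in wL (log2 change -0.46, SE 0.17, adjusted p = 0.502 by limma). IFT25, a small subunit that with IFT27 carries signalling proteins out of the cilium, was at 11.6, 4.95 and 8.40 FPKM in wF and at 15.5, 16.8 and 15.7 in wL (log2 change -1.02, SE 0.38, adjusted p = 0.502 by limma). The groups did not overlap in 4 members with lower wF values, CFAP20, CFAP97, CFAP418 and IFT25 and in 0 with higher ones, against 10.7% and 4.31% of all genes. The 3 wL ewes were close to each other in IFT25 (16.0 ± 0.71 FPKM, SD, n = 3). Without ML2, ML3, wF2 and wL2 the median was -0.69. Within their groups, wF2 and wL2 held the lowest summed level of the members. Leaving them out narrows the members' own spread, so no count by p is given here.

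Over both genotypes no member was called between the follicular and the luteal phase (limma), where 0.853% of all genes were. The smallest adjusted p belonged to IFT20, whose follicular values ran from 18.3 over a median of 23.3 to 30.6 FPKM and whose luteal values ran from 8.54 over 15.7 to 23.9 (log2 change 0.65, SE 0.17, adjusted p = 0.0835 by limma). CFAP36 ran from 48.6 over 65.7 to 85.02 FPKM in the follicular and from 34.6 over 43.2 to 65.1 in the luteal ewes (log2 change 0.48, SE 0.16, adjusted p = 0.137 by limma). IFT25 ran the other way, from 4.95 over 9.28 to 15.2 FPKM in the follicular and from 7.01 over 15.6 to 16.8 in the luteal ewes (log2 change -0.57, SE 0.27, adjusted p = 0.265 by limma). The ranges overlapped in all 3. Of the members, 2 had an unadjusted p under 0.05, where 20.0% of all genes had. The median over the members was 0.48 with all libraries, with 51 of 61 higher in the follicular phase. It was -0.12 without ML3 and -0.44 without ML2, ML3, wF2 and wL2. The members had their lowest sums in those libraries, so no count by p is given for the last setting here. The direction of the phase difference over the members thus turned with the libraries that held least ciliary RNA.

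Between genotypes no member was called in either phase. In the follicular phase 0.0231% of all genes were called by limma, and 58 of 61 members were higher in MF than in wF, with a median log2 change of 0.54, or 0.25 without ML2, ML3, wF2 and wL2. IFT46 was higher in MF (log2 change 0.51, SE 0.22, adjusted p = 0.997 by limma) and the only member with an unadjusted p under 0.05, where 3.15% of all genes had; its values, given above, overlapped between MF and wF. In 6 members all MF values were above all wF values, CFAP20, CFAP43, CFAP52, CFAP161, DRC1 and RSPH10B, and in 1 member, CFAP97, all were below, against 5.16% and 3.71% of all genes. In the luteal phase the fitted log2 level of all 61 members was lower in ML than in wL (median -1.70), although the mean FPKM of CFAP43, CFAP45, CFAP126 and DNAH7 was higher in ML. Without ML3 the median was -0.45 and 6 members were higher in ML. With all libraries none was called (0% of all genes were), and 11 members had an unadjusted p under 0.05 (13.1% of all genes). CFAP20 was at 32.5, 21.9 and 13.5 FPKM in ML against 50.3, 33.6 and 52.5 in wL (log2 change -1.07, SE 0.30, adjusted p = 0.38 by limma). IFT20 changed by -0.91 (SE 0.24, adjusted p = 0.38 by limma), with all ML below all wL. The same held for CFAP36, CFAP418 and IFT46, so that 5 members had all ML values below all wL values, and 0 above, against 13.3% and 4.83% of all genes. Pooled over phases, BB against ++ had a median of -0.54, or 0.07 without ML3. There 0 members were called (0.0115% of all genes) and 1 had an unadjusted p under 0.05, IFT20 at -0.41 (SE 0.17, adjusted p = 0.994 by limma), where 3.19% of all genes had.

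The phase difference itself was compared between genotypes by the interaction of phase and genotype, the MF against ML change minus the wF against wL change. It was positive in 61 of 61 members with a median of 2.30, against 0.20 over all genes, and 0 members were called where 0.0115% of all genes were. An unadjusted p under 0.05 was reached by 11 members, where 13.0% of all genes reached it. The smallest p belonged to CFAP20, whose interaction of 1.60 (SE 0.42, adjusted p = 0.375 by limma) was below the median of the members, followed by IFT46 with 0.95 (SE 0.31) and IFT20 with 1.01 (SE 0.34) at the same adjusted p. For CFAP20 the MF mean of 41.4 ± 6.22 FPKM was above the ML mean of 22.6 ± 9.51, while the wF mean of 28.6 ± 4.22 was below the wL mean of 45.5 ± 10.4 (SD, n = 3 each). Without ML3 the median interaction was 1.01 with 59 of 61 members positive, and without ML2, ML3, wF2 and wL2 it was 0.56 with 49 positive and a smallest adjusted p of 0.276 by limma.

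**Figure D5:**
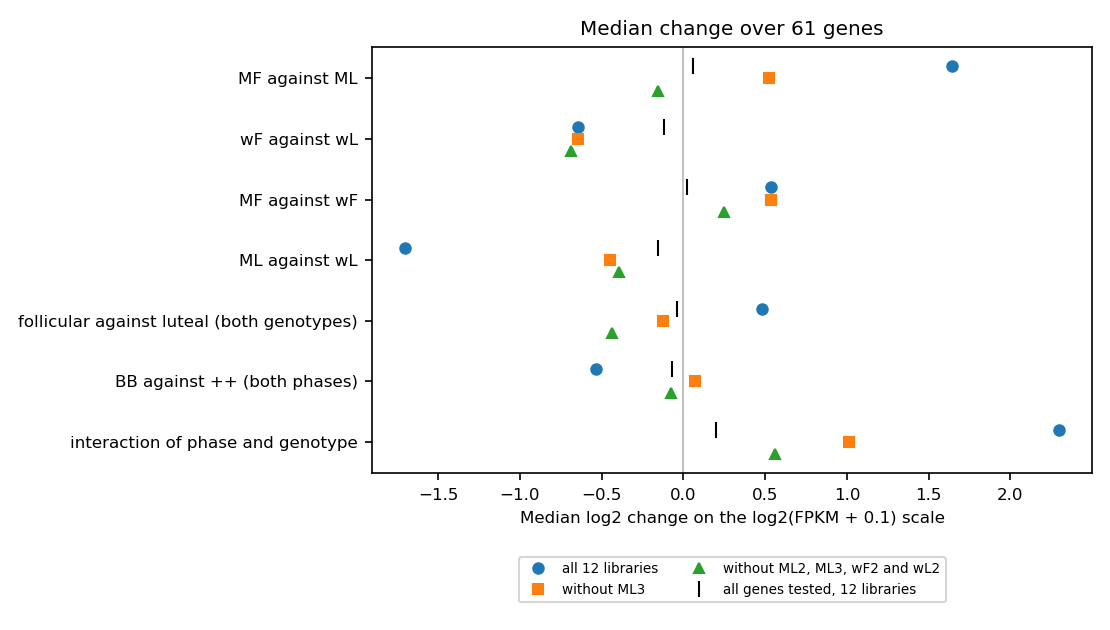
Median over the 61 genes of the log2 change in each of the 7 comparisons, with all 12 libraries, without ML3 and without ML2, ML3, wF2 and wL2, beside the median over all 8676 genes tested. The medians for MF against ML, for the pooled phases and for BB against ++ change sign between the settings. That for wF against wL is -0.65, or -0.69 without ML2, ML3, wF2 and wL2, and leaving out ML3 cannot change it.

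To compare the genes at an equal level of the ciliated markers, the mean of the 31 markers was added to the fit as a covariate. The members followed that mean closely (median correlation 0.952), so the covariate takes out a change that they share with the markers. The lack of calls in this fit therefore cannot speak to a shared change of ciliary genes. No member was called in any of the 7 comparisons, where 0.196% of all genes were called between MF and ML, 1.50% between the pooled phases, 0.0231% between MF and wF and 0% in the other 4. The count was also 0 without ML3, where 84 of 8676 genes were called between MF and ML, 214 between the pooled phases, 2 between MF and wF and 0 in the other 4. Between the pooled phases without ML3 the smallest adjusted p of a member was 0.0429 by limma. It was not called because all changes of members lay between -0.90 and 0.78. The median change between MF and ML was then -0.20, against 1.64 without the covariate. IFT20 remained at 1.08 (SE 0.29, adjusted p = 0.136 by limma). The fitted values of DNAH10 and CFAP54 were lower in MF at equal marker level. DNAH10 of the inner arm stood at -1.003 (SE 0.27, adjusted p = 0.136 by limma), and CFAP54, a protein of the central pair apparatus, at -1.44 (SE 0.42, adjusted p = 0.157 by limma). Between the pooled phases CFAP144 stood at 0.72 (SE 0.17, adjusted p = 0.0583 by limma), IFT25 at -0.76 (SE 0.20, adjusted p = 0.0729 by limma) and CFAP54 at -0.96 (SE 0.26, adjusted p = 0.0797 by limma). The FPKM of CFAP54 ran from 3.83 to 19.4 in the follicular and from 1.09 to 56.0 in the luteal ewes, which overlap.

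The lists of related genes outside the families were read in the same fit. Of the 23 tested genes of IFT partners, motors and BBSome, 21 were higher in MF than in ML and 1 was called, DYNLT2B, a light chain of the dynein that drives return transport. It was at 26.3, 35.2 and 24.9 FPKM in MF and 11.6, 12.6 and 8.52 in ML (log2 change 1.39, SE 0.29, adjusted p = 0.0462 by limma). The call held in 7 of 20 alternatives (adjusted p of 0.0365 to 0.18 by limma) and was lost without any 1 of the MF and ML ewes, without wF1, wF3, wL1 or wL3, and without ML2, ML3, wF2 and wL2. The DYNLT2B call was also lost with replicate number as a block and with only the groups compared. Among the 6 tested regulators of multiciliated cells 1 was called, CDC20B, which is known from the deuterosomes that multiply centrioles while new multiciliated cells form. It was at 13.1, 56.4 and 16.1 FPKM in MF, 1.09, 0.502 and 0.117 in ML, 26.7, 2.24 and 19.97 in wF, and 1.22, 2.46 and 2.44 in wL. All follicular ewes but wF2 were above all luteal ewes. The log2 change was 5.42 between MF and ML (SE 0.95, adjusted p = 0.0402 by limma; called in 9 of 20 alternatives) and 3.91 between the pooled phases (SE 0.67, adjusted p = 0.0317 by limma; called in 11 of 19). The call between MF and ML was lost without MF1, MF2, ML2, ML3, wF1, wF3, wL1 or wL3 and without the 4 libraries together, with 0.0239 to 0.17 as the range of the adjusted p by limma over the alternatives. The call between the phases was lost without MF1, MF2, ML2, wF1, wF3, wL1 or wL2 (0.0122 to 0.0919) and held without ML3 and without the 4 libraries together. Both CDC20B calls were also lost with replicate number as a block, and that between MF and ML with only the groups compared. Of the 31 ciliated markers outside the families 0 were called in any comparison, and 31 were higher in MF than in ML, with a median of 2.26, or 0.81 without ML3.

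At the level of single transcripts, 86 of the 88 member transcripts were tested among 31,290 mRNA transcripts, and 0 were called by limma in any comparison. The background was 0.272% between MF and ML, 0.00959% between wF and wL, 0.0160% between MF and wF, 0.0320% between ML and wL, 0.233% between the pooled phases, 0.0128% between genotypes and 0.0160% for the interaction. The only IFT20 transcript came closest (adjusted p = 0.0823 by limma between MF and ML). Without ML1, chosen after the data were seen, 1 transcript of DNAI1 was called between MF and ML (adjusted p = 0.0151 by limma). It was also called between ML and wL (adjusted p = 0.0188 by limma). This transcript was listed at 0 in both ML2 and ML3, so these calls rest on values at the floor. The other DNAI1 transcript was at 2.72 FPKM in ML2. Without ML3 the count was 0. Some genes with several transcripts had nearly all of their signal in 1 of them, as IFT122 with means of 19.8 and 0.214 FPKM. In others the transcripts shared it, as in CFAP57 with means of 4.95 and 3.30 FPKM and in IFT25 with means of 5.99, 3.37 and 2.73 FPKM. CFAP97, named after its values were seen, had 2, of which the weaker was at 3.58, 4.12 and 4.43 FPKM in MF, 2.95, 2.35 and 1.93 in ML, 3.20, 5.25 and 2.83 in wF, and 1.99, 2.59 and 2.62 in wL. The follicular values of this transcript were all above its luteal values except that wF3 was below ML1. Between the pooled phases its log2 change was 0.66 (SE 0.21, adjusted p = 0.19 by limma). The other transcript of CFAP97 was at its lowest, 3.11 FPKM, in ML3. Values of transcripts of 1 gene depend on how the assembler divides shared reads.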

How the data were processed

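The deposited table gives FPKM for 63,643 transcripts, 43,674 of them mRNA, in 12 libraries of total RNA. Per the labels, the authors cleaned the reads with fastp, aligned them to Oar_v3.1 with HISAT2 and obtained the FPKM with StringTie. Since FPKM holds no read counts, no count test was run, and depth limits precision to an unknown degree.

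Transcripts were paired with gene symbols through RefSeq identifiers of a newer sheep assembly, ARS-UI_Ramb_v3.0, used for names only. Of the mRNA transcripts, 15,202 (34.8%) were paired, 853 exactly, 14,336 with the version ignored and 13 by gene identifier, and they held 67.6% of the mean mRNA FPKM. Their FPKM was summed per gene. Genes with a mean of at least 0.1 FPKM (8676) were fitted with limma 3.58.1 (R 4.3.3, trend) on log2(FPKM + 0.1), with 4 group means over all 12 libraries and Benjamini-Hochberg adjustment over all genes. A gene was called where its adjusted p was under 0.05 and its log2 change was 1 or more in either direction. The fit was tested on simulated data. P-values measure only the spread between these 12 ewes.

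Named genes were those called, the highest and the most and least variable of each structural class, those nearest to the 0.5 FPKM limit, the smallest p of comparisons without a call, and those most and least like the ciliated markers; others are marked as chosen after their values were seen. The members and all lists were chosen with earlier results of these data known. Alternatives were other added values, filters and scalings, a replicate block, the compared groups alone and each library left out. Sums and summaries were made in Python 3.11.15 (numpy 2.4.6, pandas 2.3.3), with matplotlib 3.10.9 for the plots.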

Additional observations from a re-analysis of the deposited data

Results flagged for a closer look

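In groups of 6 ewes, 10 of 20 tests found 1 library far from the nearest other one relative to the group's whole range, where chance marks about 1 in 20 groups. The tests share libraries and classes. For the median log2 level of the 61 genes, the gap took a share of 0.758 of the follicular range (wF2 lowest), 0.764 of the luteal range (ML3 lowest) and 0.798 of the BB range (ML3 lowest).

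By class, ML3 was the low library of the luteal ewes with a share of 0.764 in IFT-A, 0.779 in the other CFAP genes, 0.727 in the inner arm, 0.684 in the radial spoke and 0.715 in the tektins. The low library of the follicular ewes was wF2, with a share of 0.707 in the inner arm and 0.634 in the radial spoke. No such gap was found for IFT-B, the outer arm or the dynein regulatory complex in either phase. Smooth muscle markers were highest in ML3 and wF2, and their part in these values was not tested.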

How the results depend on the processing

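The 1 member called between MF and ML, IFT20, was not called (0 members) with equal library sums, with the replicate block (smallest adjusted p = 0.0646 by limma), with only the groups compared, or without ML2, ML3, wF2 and wL2, a setting chosen after the data were seen in which ML1 alone is assumed to vary like the other groups. With 1 library left out at a time, the count ran from 0 to 1. Same-numbered ewes correlated at -0.249 to 0.402 over 18 pairs, 7 of them over 0.1. Differently numbered ewes of different groups correlated at -0.510 to 0.360. Among ML, wF and wL the pairs numbered 1 or 2 were all positive, from 0.146 to 0.402. Pairs numbered 3 and pairs with MF ran from -0.249 to 0.153. Whether the numbers pair the ewes was not tested. IFT20 was the only member called, so the block had no other call of a member to lose. It did lose the calls of DYNLT2B and CDC20B. Of 137 alternatives for counts of called members 125 kept the count, but most of these belong to comparisons that began and stayed at 0. Between MF and ML, the only comparison with a called member, the call held in 8 of 20. Of 506 alternatives for single log2 changes 494 kept their side of the threshold, mostly by staying uncalled. The other 12, all for IFT20, lost the call, and none reversed a called value. Member transcripts called ran from 0 to 1 between MF and ML and between ML and wL when libraries were left out. In the fits with a covariate 0 members were called in all 112 alternatives. Some of these used the mean of the members themselves in place of the ciliated markers. That takes out any change the members share, so the 0 there was fixed in advance for such a change.

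Moves of the median over the members were set against 1.45 log2 units, the SD of the library medians within groups. With ML3 this SD was wide (2.74 in ML against 0.18 in MF), so smaller moves, changes of sign among them, were not counted. Without ML2, ML3, wF2 and wL2 the median over the members moved beyond it, to -0.15 between MF and ML and to 0.56 for the interaction. With 1 library left out it ran from 0.53 to 2.64 between MF and ML, from -1.06 to -0.23 between wF and wL, from 0.25 to 0.88 between MF and wF, from -2.55 to -0.45 between ML and wL, from -0.12 to 0.96 between the phases, from -1.01 to 0.07 between genotypes and from 1.01 to 3.32 for the interaction. A limit of 1 FPKM would have left 60 members. The sums hold only paired transcripts, and the depth behind each FPKM is unknown.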
